A study of Arabidopsis thaliana with 3 samples.

Results

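Binding of AIPP3 was examined at 44 Arabidopsis thaliana genes that are known for rapid induction by touch, calcium signals, wounding or microbial elicitors. The genes were listed by locus identifier out of 27444 nuclear protein-coding genes. They comprise 8 ZAT and AZF zinc finger genes, 7 touch and calcium genes, 9 kinase genes, 4 regulators of mRNA, 3 immune transcription regulators, 3 PUB ubiquitin ligases, 6 secretion and membrane genes and 4 enzymes and defence outputs. ERF and WRKY transcription factor genes were left out of the list. The list was drawn up with the peaks of these same libraries known, so the counts of bound members are a description of how the genes were chosen and were not tested.

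Chromatin immunoprecipitation followed by sequencing (ChIP-seq) recovers the DNA that a protein occupies and places it on the genome as peaks. It was carried out with a Myc antibody on whole 13-day-old seedlings grown in long days on medium with sucrose. The 2 AIPP3-4Myc libraries, replicates 1 and 2, were made from Col-0 ecotype plants with a Myc-tagged AIPP3, and the 1 Col-0 library from untagged plants of that ecotype. Per the study's methods, epitope-tagged genomic constructs under native promoters were placed in mutants of the gene concerned, so the tag may not be the sole genetic difference between AIPP3-4Myc and Col-0 plants. The descriptions of both AIPP3-4Myc libraries carry different codes, a39 and a1114, whose meaning was not stated, so it is unknown whether 1 transgenic line or more was used. AIPP3 has a BAH domain, which was studied as a reader of H3K27me3, a histone mark of genes that Polycomb proteins keep silent.

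Touch, wounding and microbial elicitors raise cytosolic calcium within seconds to minutes. Calmodulin-like proteins sense this calcium, receptor-associated kinases and MAP kinase cascades pass on the signal, and ubiquitin ligases, RNA-binding proteins and zinc finger repressors restrain it. The outputs include cell wall enzymes, syntaxins and transporters that deliver material to the cell surface, and enzymes that make ethylene and defence metabolites.

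A gene was called bound in a library when a peak overlapped by at least 1 bp its target region, defined as the gene from its transcription start site (TSS) to its transcription termination site (TTS) plus the 1 kb before the TSS. Each peak has a MACS score, equal to 10 times the negative log10 of its p-value. The lists held 933 peaks in replicate 1, 437 in replicate 2 and 26 in Col-0. Reads per library were not given in the sources used here, and a score grows with depth, so each score is set beside its rank in its own list. A gene without a peak did not pass the threshold of the peak caller at an unknown depth, which does not show that AIPP3 is absent there.

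Of the 44 members, 21 (47.7%) were bound in replicate 1, where 5.11% of all protein-coding genes were bound. In replicate 2, 17 members (38.6%) were bound, against 2.28% of all protein-coding genes. Both AIPP3-4Myc libraries had a peak at 15 members (34.1%), against 1.67% of all protein-coding genes. No member was bound in Col-0, where 0.0547% of all protein-coding genes were bound. Because the members were listed with the peaks known, nothing was read from these differences. The 15 members bound in both were ZAT12, ZAT10, TCH2, TCH3, TCH4, MPK4, SZF1, CAF1a, PUB22, PUB23, SYP121, SYP122, PEN3, NHL3 and BCB. With scores of at least 100 the count was 8, without ZAT10, PEN3, TCH3, SYP121, PUB22, NHL3 and TCH4, and 0.496% of all protein-coding genes were bound in both. With each peak assigned to the nearest TSS alone it was 9, without PUB23, TCH3, MPK4, NHL3, BCB and TCH4, against 0.955%. The 15 members made up 71.4% of the members bound in replicate 1 and 88.2% of those bound in replicate 2. Replicate 1 alone had a peak at 6 members (AZF2, CML38, CML39, NHL10, ACS6 and CYP81F2), and replicate 2 alone at 2 (MKK9 and CZF1). The remaining 21 members had no AIPP3-4Myc peak. MPK4 and CML39 counted as bound through a peak that lay mainly or wholly upstream of the TSS. Of the members without a peak, ZAT6 came nearest to one, with its target region 1.61 kb from a peak of replicate 2.

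**Figure D1:**
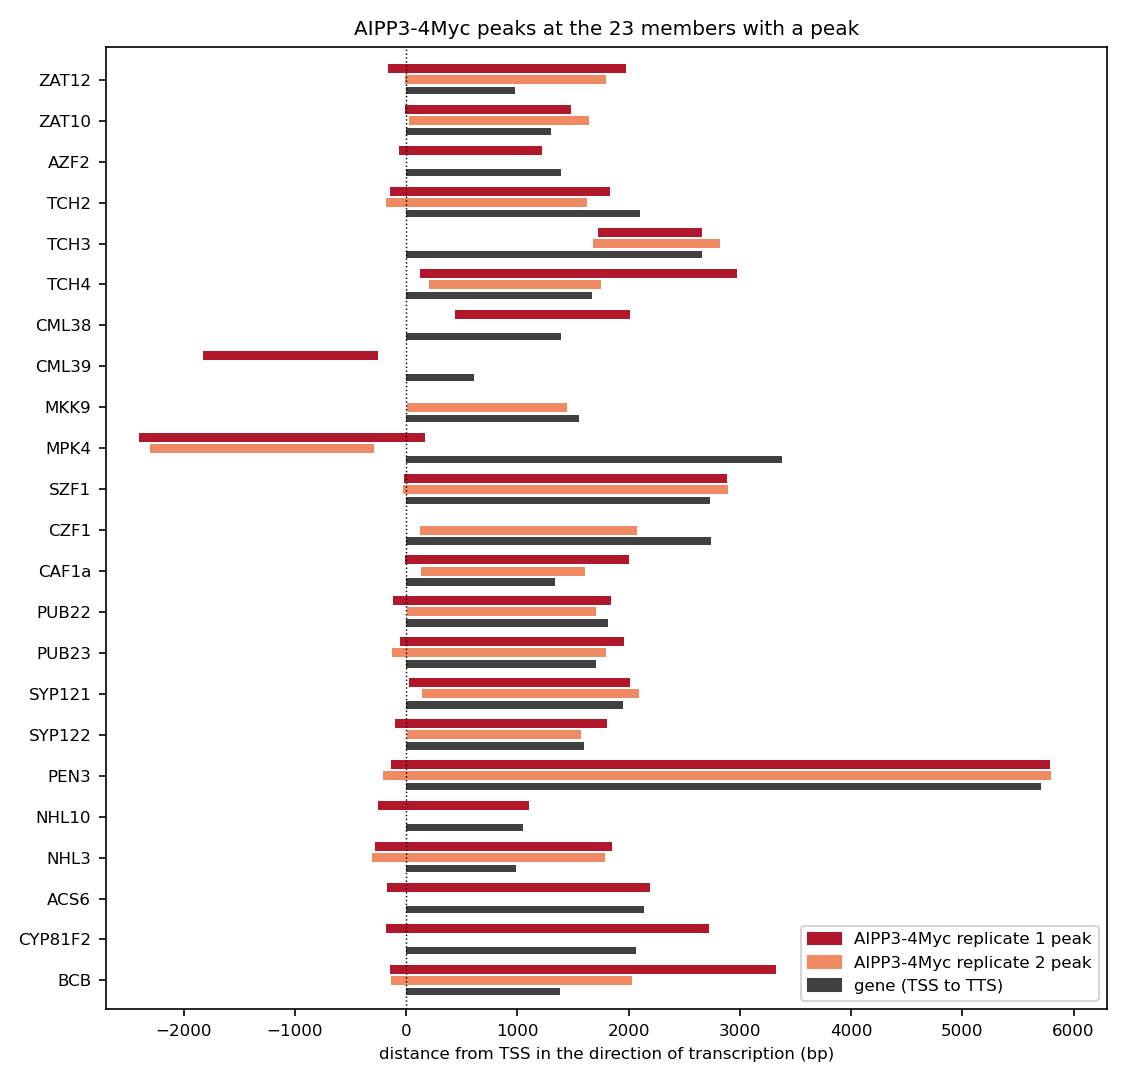
Peaks of AIPP3-4Myc replicate 1 (dark red) and replicate 2 (light red) at the 23 members with a peak, drawn to scale as distance in bp from the TSS in the direction of transcription, with the gene as a black bar. Most peaks start near the TSS and run to or past the end of the gene, with exceptions. Those at TCH3 and CML38 start farther downstream, and those at MPK4 and CML39 lie mainly or wholly upstream. Peaks at TCH2, AZF2, CZF1 and MKK9, and in replicate 2 at PUB22 and SYP122, end before the TTS.

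Sequences of the C2H2 zinc finger genes are shown first, because the members of this family differed in whether they had a peak although they share the core of the finger. Each line gives 60 bases of coding sequence around the first zinc finger, read 5′ to 3′ on the coding strand, with the 18 bases that code for the conserved core of the finger in capitals.
ZAT12, chr5:24103196-24103255, plus strand: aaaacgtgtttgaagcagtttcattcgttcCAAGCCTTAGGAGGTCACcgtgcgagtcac
ZAT10, chr1:9648680-9648739, minus strand: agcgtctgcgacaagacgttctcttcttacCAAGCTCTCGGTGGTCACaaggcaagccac
AZF2, chr3:6803731-6803790, minus strand: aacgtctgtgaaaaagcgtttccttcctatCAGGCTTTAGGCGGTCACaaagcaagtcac
ZAT6, chr5:1216705-1216764, minus strand: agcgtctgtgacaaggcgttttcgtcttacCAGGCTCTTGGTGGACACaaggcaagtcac
ZAT7, chr3:16926625-16926684, minus strand: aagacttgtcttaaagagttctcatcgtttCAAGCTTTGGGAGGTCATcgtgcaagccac
ZAT11, chr2:15706601-15706660, plus strand: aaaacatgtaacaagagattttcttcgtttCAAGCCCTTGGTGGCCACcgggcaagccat
AZF1, chr5:26919523-26919582, minus strand: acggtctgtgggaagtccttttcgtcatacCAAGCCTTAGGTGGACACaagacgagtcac
AZF3, chr5:17331341-17331400, minus strand: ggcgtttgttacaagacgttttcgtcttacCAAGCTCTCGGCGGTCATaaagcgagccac
This stretch lay under a peak of both AIPP3-4Myc libraries in ZAT12 and ZAT10, under a peak of replicate 1 alone in AZF2, and under no peak in the other 5 genes. Each of the 8 genes codes for 2 such cores.

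ZAT12 (AT5G59820, chr5:24102814-24103794), a zinc finger regulator of the responses to oxidative stress, high light and cold, was covered over its whole length in both AIPP3-4Myc libraries. Its peak scored 127.09 in replicate 1 (rank 126 of 933) and 106.05 in replicate 2 (rank 109 of 437). The peaks started at -162 and -13 bp from the TSS in replicates 1 and 2 and ran 997 and 814 bp past the TTS. ZAT10 (AT1G27730, chr1:9648021-9649323), also known as STZ, a transcriptional repressor induced by salt and cold, had scores of 93.71 (rank 285) in replicate 1 and 141.89 (rank 52) in replicate 2. The ZAT10 peaks covered 100% and 97.7% of the gene. ZAT12 (981 bp) and ZAT10 (1303 bp) are both intronless. The median peak was longer, at 1725 bp in replicate 1 and 1603 bp in replicate 2. Cover by a peak of such width does not show how AIPP3 was spread along the gene. AZF2 (AT3G19580), a repressor gene induced by abscisic acid and salt, had a peak with a score of 63.93 in replicate 1 (rank 603), over 87.7% of its length. The nearest peak of replicate 2 was 280.0 kb from the target region of AZF2. ZAT6, ZAT7, ZAT11, AZF1 and AZF3 had no AIPP3-4Myc peak.

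Of the 7 touch and calcium genes, 3 had a peak in both libraries. TCH2 (AT5G37770, chr5:14997514-14999619) encodes a calmodulin-like protein and had scores of 204.04 in replicate 1 (rank 41) and 146.81 in replicate 2 (rank 49). Its peaks covered 87.0% and 77.4% of the gene from the 5′ end, and also reached the 3′ part of the DnaJ-domain gene AT5G37760, of which they covered 42.0% and 23.0%. TCH4 (AT5G57560, chr5:23307006-23308680) encodes a xyloglucan endotransglucosylase/hydrolase, an enzyme that cuts and rejoins wall xyloglucan. The TCH4 peaks scored 100.63 (rank 242) and 98.26 (rank 127) in replicates 1 and 2 and covered 92.8% and 87.5% of the gene. In replicate 1 the TCH4 peak ran on over 44.1% of XTH25, the related gene downstream, while the peak of replicate 2 touched only the upstream region of XTH25.

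TCH3 (AT2G41100, chr2:17137037-17139700), which encodes a longer calmodulin-like protein with several calcium-binding EF hands, had a different arrangement. Its peaks began 1721 and 1680 bp downstream of the TSS in replicates 1 and 2 and covered 35.4% and 36.9% of the gene, at its 3′ end. The scores were modest within their lists, at 70.66 (rank 502) in replicate 1 and 79.37 (rank 195) in replicate 2. The same peaks lay over the 3′ part of TCH3, over 48.6% and 53.6% of the uncharacterized gene AT2G41105 on the other strand, and within the upstream region of CAM2, a calmodulin gene. Which of these genes the occupancy belongs to cannot be told apart from the peak positions. The adjacent genes CML38 and CML39 encode calmodulin-like proteins and shared 1 peak in replicate 1, with a score of 88.86 (rank 313). It covered 68.0% of CML38 and none of CML39, which counted as bound through its upstream region. Their target regions lay 18.7 and 17.2 kb from the nearest peak of replicate 2. CML37 and CML23 had no AIPP3-4Myc peak.

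Of the 9 kinase genes, MPK4 (AT4G01370, chr4:566917-570299) alone had a peak in both libraries. MPK4 encodes a MAP kinase that restrains salicylic acid-dependent defence. Its peak was among the highest of each list, with scores of 366.3 in replicate 1 (rank 11) and 296.33 in replicate 2 (rank 10). The midpoints, given relative to the MPK4 start, were at -1114.5 and -1298 bp, and the peaks covered 5.14% and 0% of the MPK4 gene.
They covered 100% of the neighbouring gene BPS3 (AT4G01360), with midpoints in its coding sequence. The call of MPK4 thus rested on its upstream region. MKK9 (AT1G73500) encodes a MAP kinase kinase that acts above MPK3 and MPK6. It had a peak in replicate 2 with a score of 61.55 (rank 294) over 92.6% of the gene, while the nearest peak of replicate 1 was 3.25 kb from its target region. No AIPP3-4Myc peak was found at the other 7 genes, which were the receptor-like kinase gene FRK1, the receptor-associated kinase gene BIK1, and the cascade genes MEKK1, MKK4, MKK5, MPK3 and MPK6.

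Among the regulators of mRNA, CAF1a (AT3G44260, chr3:15952008-15953346) encodes a deadenylase that shortens the poly(A) tail of mRNA. It had the member peak with the highest rank after MPK4 in replicate 1, with a score of 322.81 (rank 12), and scored 200.39 in replicate 2 (rank 28). The peaks covered 100% and 90.1% of the gene and touched the target region of no other gene. SZF1 (AT3G55980, chr3:20776220-20778952), a tandem CCCH zinc finger gene induced by salt, had scores of 201.22 (rank 46) and 207.67 (rank 25) in replicates 1 and 2. Both SZF1 peaks followed the gene closely. Their upstream edges were at -22 and -27 bp from the TSS and their downstream edges 149 and 162 bp past the TTS in replicates 1 and 2. CZF1 (AT2G40140), the closest relative of SZF1 in the list, had a peak in replicate 2 alone, with a score of 76.38 (rank 209) over 71.2% of the gene. CAF1b had no AIPP3-4Myc peak.

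PUB22 and PUB23 encode U-box ubiquitin ligases that dampen immune signalling together with PUB24. PUB23 (AT2G35930, chr2:15082855-15084559) had scores of 194.87 in replicate 1 (rank 48) and 109.58 in replicate 2 (rank 101). PUB22 (AT3G52450, chr3:19440617-19442427) had scores of 112.39 (rank 179) and 93.63 (rank 139) in replicates 1 and 2. PUB23 was covered over 100% of its length in both libraries and PUB22, likewise intronless, over 100% and 94.0% in replicates 1 and 2. The PUB23 peaks also covered the uncharacterized gene AT2G35935, which lies on the other strand at the same place. PUB24, which has 2 exons, had no AIPP3-4Myc peak, and its target region began 5.35 and 5.47 kb from the ends of the SYP121 peaks of replicates 1 and 2.

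Of the 6 secretion and membrane genes, 4 had a peak in both libraries. SYP121 (AT3G11820, chr3:3729305-3731251) and SYP122 (AT3G52400, chr3:19425632-19427230) encode related plasma membrane syntaxins of defence-related secretion. SYP122 scored 102.94 in replicate 1 (rank 228) and 142.74 in replicate 2 (rank 51), and SYP121 scored 60.59 (rank 681) and 83.97 (rank 176). Their peaks covered at least 90% of each gene in both libraries, with midpoints in an intron. PEN3 (AT1G59870, chr1:22034423-22040126), an ABC transporter gene of defence against non-adapted fungi, had the widest peaks of the members. They measured 5929 and 6004 bp in replicates 1 and 2 and covered the whole of the 5704 bp gene, with scores of 98.63 (rank 252) and 155.03 (rank 45). NHL3 (AT5G06320, chr5:1930793-1931782) encodes a membrane protein related to the immune regulator NDR1 and had scores of 83.4 in replicate 1 (rank 358) and 155.62 in replicate 2 (rank 44). The NHL3 peaks covered the whole gene and 39.0% and 36.6% of POT1b, the gene that ends beside it. NHL10 (AT2G35980), of the same family, had a peak in replicate 1 alone, with a score of 56.78 (rank 755), which was the lowest score of any member in that library. EXO70B2, which encodes an exocyst subunit that PUB22 targets, had no AIPP3-4Myc peak.

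BCB (AT5G20230, chr5:6826365-6827748), which encodes a blue copper-binding protein induced by stress, had scores of 242.24 in replicate 1 (rank 19) and 226.89 in replicate 2 (rank 18). Its peaks covered the whole gene, and in replicate 1 the peak extended 1938 bp past the TTS and over 30.0% of PI, a MADS-box gene of floral organ identity. In replicate 2 the peak ended 646 bp past the TTS and touched only the upstream region of PI. ACS6 (AT4G11280), an ethylene biosynthesis gene, had a peak in replicate 1 with a score of 84.12 (rank 354), and CYP81F2 (AT5G57220), an indole glucosinolate gene, had one with a score of 97.85 (rank 255). Both of these genes were covered over 100% of their length in replicate 1 and had no peak in replicate 2. RBOHD, the NADPH oxidase of the elicitor-induced oxidative burst, had no AIPP3-4Myc peak. None of the 3 immune transcription regulators, CBP60G, SARD1 and SIB1, had one either.

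**Figure D2:**
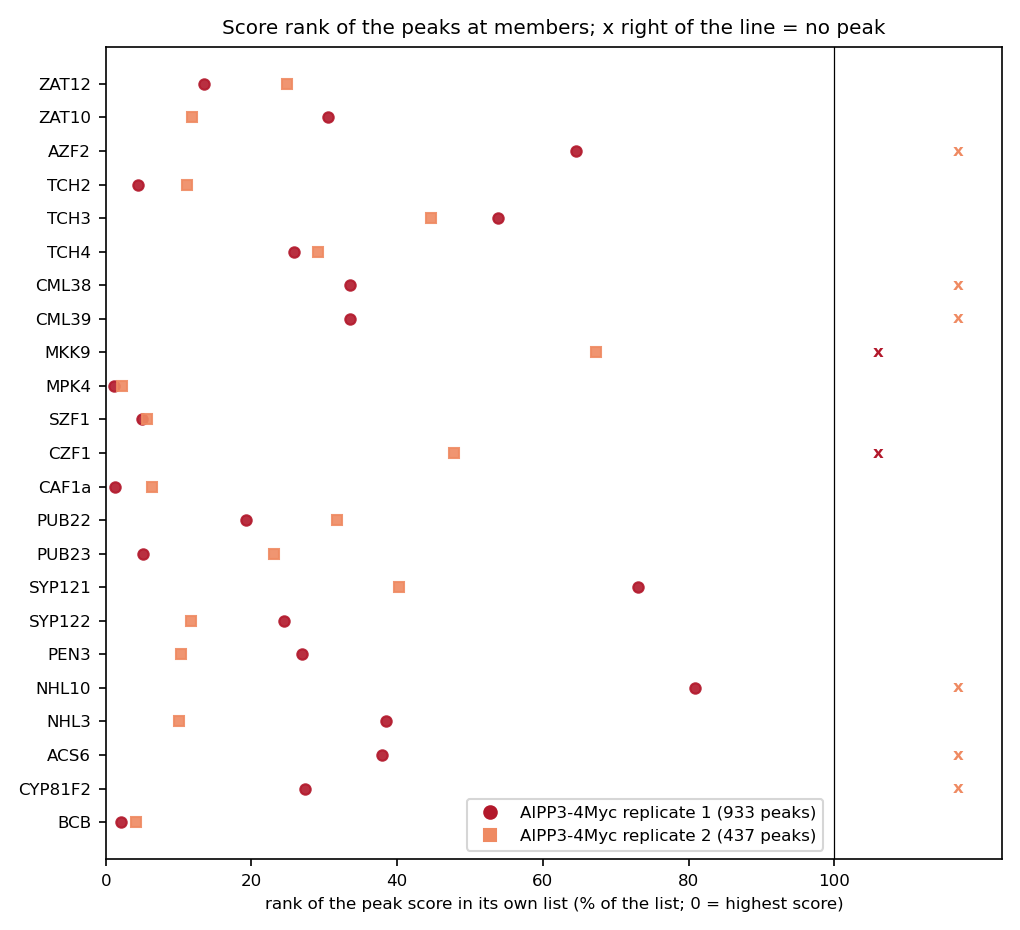
Rank of the peak score at each of the 23 members with a peak, as a percentage of its own list (0 is the highest score), for AIPP3-4Myc replicate 1 (circles, 933 peaks) and replicate 2 (squares, 437 peaks). A coloured x right of the line means no peak in that library, and MPK4, CAF1a, BCB and SZF1 lie within the first 7% of both lists. The peaks counted for MPK4 lie mainly over the neighbouring gene BPS3.

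Over the 15 members bound in both libraries, the median score rank was 19.2% of the list in replicate 1 and 11.7% in replicate 2. Over the other 444 protein-coding genes bound in both, it was 27.5% and 42.9%. The members were listed with these peaks known, and the 444 include genes that a peak touched only upstream. Nothing was therefore read from this difference in rank. The peaks at MPK4, CAF1a, BCB and SZF1 lay within the first 7% of both lists. The MPK4 peaks covered 5.14% and 0% of MPK4 and 100% of its neighbour BPS3 in replicates 1 and 2, so their rank may not belong to MPK4. TCH2 lay at 4.39% in replicate 1 and 11.2% in replicate 2, and NHL3 lay at 38.4% in replicate 1 and 10.1% in replicate 2. The 6 members bound in replicate 1 alone had ranks between 27.3% (CYP81F2) and 80.9% (NHL10) of that list. MKK9 and CZF1, bound in replicate 2 alone, had ranks of 67.3% and 47.8%. The members bound in 1 library thus did not all lie at the end of its list.

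The position of the peaks relative to the genes comes from the same peaks that were known when the members were listed. It may have entered the choice of members, so it is given as a description and was not tested. Of the 15 members bound in both, 12 (80.0%) in replicate 1 and 11 (73.3%) in replicate 2 had at least 90% of the gene body under the peak. Among the other 444 genes bound in both, 41.9% and 30.0% had such cover. These 444 include genes that a peak touched only upstream, 82 in replicate 1 and 93 in replicate 2, and 13 in each library that a member's peak reached, whereas the members were listed with the peaks known. Among genes whose body the peak touched, a restriction added after the data were seen, the shares were 80.0% of 15 members against 51.4% of 362 other genes in replicate 1, and 78.6% of 14 against 37.9% of 351 in replicate 2. The median share of the gene body under the peak was 100% and 97.7% for the members and 83.6% and 70.3% for the other genes, in replicates 1 and 2. Cover also depends on gene length, for which it was not adjusted. The median length was 1705 bp for the members and 1918 bp for the other genes. The upstream edge of the peak lay within 200 bp of the TSS at 12 members (80.0%) in replicate 1 and 10 (66.7%) in replicate 2, against 40.5% and 44.8% of the other genes. Peak midpoints lay in coding sequence at 7 and 10 of the 15 members, in an untranslated region at 4 and 2, and in an intron at 2 and 2. MPK4 was the only one of the 15 with its midpoint upstream of the TSS, against 26.1% and 25.7% of the other genes. The median midpoint was 953.5 and 872.5 bp downstream of the TSS for the members and 783.5 and 778.5 bp for the other genes.

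**Figure D3:**
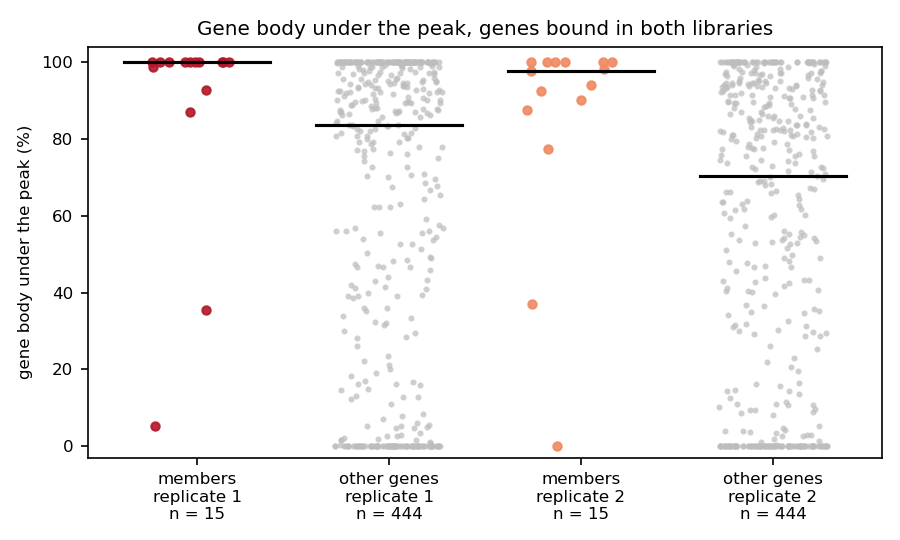
Percentage of the gene body (TSS to TTS) under the peak for the 15 members and the other 444 protein-coding genes bound in both AIPP3-4Myc libraries, in replicate 1 and replicate 2. Each point is a gene, points are spread sideways, and the black lines are medians, at 100% for members against 83.6% for other genes in replicate 1, and 97.7% against 70.3% in replicate 2.

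Both replicates placed the peaks of these 15 members at nearly the same bases. The bases shared by both peaks made up 54.3% to 100% of the replicate 1 peak (median 89.7%) and 82.6% to 100% of the replicate 2 peak (median 99.4%). The peaks of replicate 1 that reached farthest beyond those of replicate 2 were at TCH4 and BCB, on the downstream side. Of the 21 calls of members in replicate 1, 16 came from a peak that also touched the target region of another protein-coding gene, and in replicate 2 it was 12 of 17. The neighbour had more of its gene body covered than the member at MPK4 and TCH3 in both libraries, and at CML39 in replicate 1.

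Some close relatives within the list differed in whether they had a peak. PUB22 and PUB23 were identical at 79.9% of aligned coding bases, counted over the shorter sequence, and were both bound in both libraries. SYP121 and SYP122, at 67.7% identity, were likewise both bound in both. CAF1a and CAF1b were identical at 80.5%, yet CAF1a had a peak in both libraries and CAF1b in none. The same held for TCH2 against CML23 (81.0%), for ZAT10 against ZAT6 (77.5%) and for ZAT12 against ZAT11 (59.3%). AZF2, with a peak in replicate 1 alone, and AZF1, with none, were identical at 62.3%. MKK4 and MKK5 (82.0%) both had no peak, as did MPK3 and MPK6 (69.9%). Coding identity of a pair thus went with equal peak calls in some pairs and with different calls in others. A gene without a call may still be occupied, so these are not measured differences in occupancy. How many reads of these libraries could map to both copies of a pair was not tested.

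Single-exon genes were about as frequent among members with and without a peak. Single-exon genes made up 6 of the 15 members bound in both (40.0%), 9 of the 21 without a peak (42.9%) and 18.9% of all protein-coding genes. Of the other 444 genes bound in both, 29.7% had a single exon. The median gene length was 1705 bp for the members bound in both and 2016 bp for those without a peak. It was 1918 bp for the other 444 genes bound in both and 2078 bp for all protein-coding genes. The peaks that touched members had a GC share of 38.6% in replicate 1 and 40.0% in replicate 2, against 40.4% and 41.2% in the other nuclear peaks. The word GAGAGA, counted on both strands, occurred 1.55 and 1.68 times per kb in them, against 2.11 and 2.17 times per kb.

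Promoter windows are shown for 4 members bound in both libraries, because they carry the words that known stress regulators recognise and show where the peaks start relative to them. Each line gives the 150 bases before the TSS, read 5′ to 3′ towards the gene. Capitals mark the W box, TTGACC or TTGACT, bound by WRKY factors, and the rapid stress response element, CGCGTT, bound by CAMTA calmodulin-binding factors, on either strand.
TCH2, chr5:14999620-14999769, minus strand: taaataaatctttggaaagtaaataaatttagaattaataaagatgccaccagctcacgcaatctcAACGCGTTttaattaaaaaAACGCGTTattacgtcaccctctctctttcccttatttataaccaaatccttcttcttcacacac
SZF1, chr3:20776070-20776219, plus strand: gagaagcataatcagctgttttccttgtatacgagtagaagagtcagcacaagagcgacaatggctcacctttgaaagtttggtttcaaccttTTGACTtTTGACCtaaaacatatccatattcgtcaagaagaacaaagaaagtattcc
PUB22, chr3:19442428-19442577, minus strand: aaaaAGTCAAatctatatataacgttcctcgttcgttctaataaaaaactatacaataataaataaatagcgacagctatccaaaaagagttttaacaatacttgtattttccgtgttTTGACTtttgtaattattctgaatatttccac
PUB23, chr2:15084560-15084709, minus strand: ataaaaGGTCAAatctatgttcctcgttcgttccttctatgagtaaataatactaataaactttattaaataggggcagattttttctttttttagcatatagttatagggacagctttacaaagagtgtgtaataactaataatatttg
In TCH2 the word AACGCGTT, which reads the same on both strands, began 84 and 65 bases before the TSS, and both copies lay under the peaks of both AIPP3-4Myc libraries. In SZF1 a pair of W boxes began 57 and 50 bases before the TSS, outside the peaks of both libraries. In PUB22 the W box that began 32 bases before the TSS lay under the peak of replicate 1 alone, and the other, 146 bases before it, under neither. The single W box in the PUB23 window, 144 bases before the TSS, lay under neither. In NHL3, whose window is not printed, a W box that began 115 bases before the TSS lay under the peaks of both libraries. The SYP121 window, also not printed, has a W box that began 58 bases before the TSS, under neither peak. That of MPK4 has AACGCG, which is CGCGTT on the other strand, 48 bases before the TSS, under the peak of replicate 1 alone. The 150-base windows of ZAT12, ZAT10, TCH3, TCH4, CAF1a, SYP122, PEN3 and BCB carry neither word. The PUB22 and PUB23 windows share a run of 15 bases, gttcctcgttcgttc, which began 127 bases before the TSS of PUB22 and 132 before that of PUB23.

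In windows from 250 bases before to 50 after the TSS, searched on both strands, a W box occurred in 11 of the 15 members bound in both (73.3%), in 6 of the 8 bound in 1 library and in 8 of the 21 without a peak (38.1%). Of all 44 members 56.8% had one, and of all protein-coding genes 32.4%. Members were listed with the peaks known, so nothing was read from the difference between these groups. CGCGTT occurred in 3 of the 15 members bound in both (TCH2, MPK4 and SYP122) and in none of the 8 bound in 1 library. It occurred in 3 of the 21 without a peak (CML23, MEKK1 and EXO70B2), against 3.4% of all protein-coding genes. The words GAGAGA and AAACCCTA, known from Polycomb response elements of plants, occurred in 15.9% and 2.27% of the members' windows, against 29.2% and 6.22% of all protein-coding genes. The G box, CACGTG, occurred in 13.6% of the members' windows and in 7.68% of all, and TATAAA in 45.5% and 52.1%. For members bound in both and those without a peak, GAGAGA occurred in 13.3% and 19.0%, CACGTG in 13.3% and 9.52%, and TATAAA in 33.3% and 52.4%. AAACCCTA occurred in CML23 alone, which had no peak. A match is a word in the window and not a site of binding.

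The 21 members without an AIPP3-4Myc peak were ZAT6, ZAT7, ZAT11, AZF1, AZF3, CML37, CML23, FRK1, BIK1, MEKK1, MKK4, MKK5, MPK3, MPK6, CAF1b, CBP60G, SARD1, SIB1, PUB24, EXO70B2 and RBOHD. Their target regions lay 3.95 to 170.0 kb from the nearest peak of replicate 1 (median 58.1 kb) and 1.61 to 419.0 kb from that of replicate 2 (median 132.0 kb). MKK4 was the nearest in replicate 1, and ZAT6 in replicate 2. By role, 7 of 9 kinase genes, 5 of 8 zinc finger genes and 3 of 3 immune transcription regulators had no peak, against 94.4% of the protein-coding genes that are not members. Among the secretion and membrane genes 1 of 6 had none, and among the regulators of mRNA and the enzymes 1 of 4 each.

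A search of the annotation by symbol or synonym found 215 further genes of the members' families. Family genes without such a name in the annotation were missed, so the counts are not of whole families. Of the 215 found, 17 (7.91%) were bound in replicate 1, 13 (6.05%) in replicate 2 and 9 (4.19%) in both, against 5.11%, 2.28% and 1.67% of all protein-coding genes, and none in Col-0. Some were reached only by a peak that also touched a member. Without the peaks that touch members, a count added after the data were seen, 7 family genes (3.26%) were bound in both libraries, against 1.57% of the protein-coding genes that are not members. Tandem CCCH zinc finger (TZF) genes, named apart from SZF1 and CZF1, had the highest share, with 3 of 8 bound in both libraries. They were TZF1 (scores of 104.85 in replicate 1 and 59.45 in replicate 2), TZF3 (61.15 and 64.29) and TZF6, also called PEI1 (81.15 and 52.97). Of 22 further EXO70 exocyst genes, 3 were bound in both. EXO70H4 had scores of 141.14 and 99.13 in replicates 1 and 2, with 98.7% and 94.5% of its body covered, and EXO70H3 was reached by the same peaks in its upstream region only. EXO70H7 had scores of 86.3 and 100.27. XTH24, a wall enzyme gene of the family of TCH4, had scores of 60.04 and 60.38, while XTH25 and CAM2 counted as bound through the peaks at TCH4 and TCH3. Among the genes found by this search, no further one of the MPK, MKK, MEKK, PUB, SYP, NHL, RBOH, ACS or ABCG families had a peak in both.

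**Figure D4:**
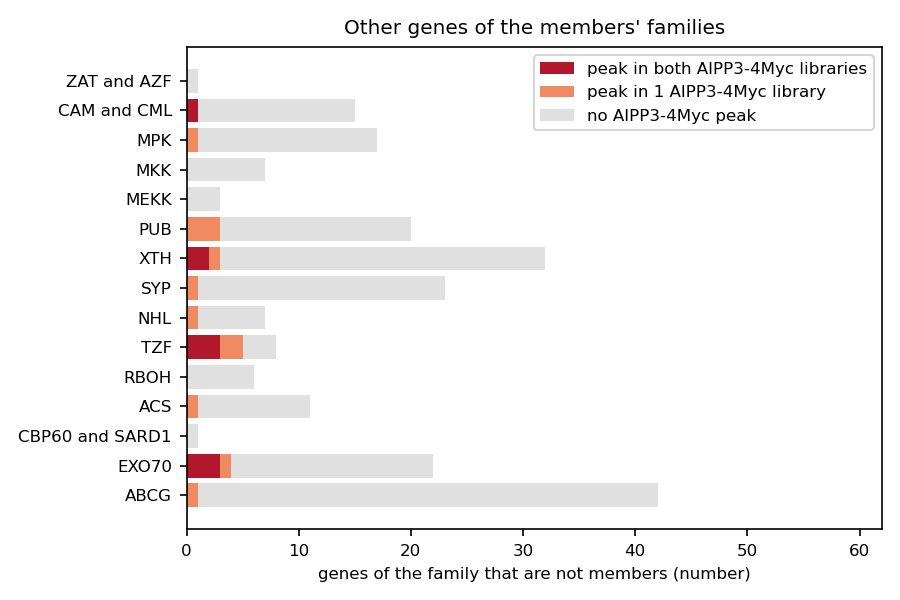
Genes of the members' families, as far as found by symbol or synonym, that are not themselves among the 44 members, by whether they had a peak in both AIPP3-4Myc libraries (dark red), in 1 (light red) or in none (grey). The horizontal axis is the number of genes, and 9 of the 215 genes had a peak in both, in the CAM and CML, XTH, TZF and EXO70 families.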

How the data were processed

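The authors mapped reads to TAIR10 with Bowtie2 2.2.8 and called peaks in each library with MACS 1.4, both with default parameters, per the study's methods. The control given to MACS, duplicate handling and reads per library are not given in the sources used here. The deposited peak score of each library is the MACS score, where 50 equals a p-value of 1e-05. The members and lists here were chosen with earlier results of these data known. Gene models and sequence came from TAIR10.1, whose nuclear coordinates are those of TAIR10, and promoter words were counted over all 27444 nuclear protein-coding genes. Only nuclear peaks were assigned to genes. Where several peaks touched a gene, the one with the highest score gave its position. All members with a peak are named, and of other family genes those bound in both libraries. Family genes were found by symbol or synonym. Coordinates are 1-based. With 2 libraries against 1, no test between genotypes was made, and all values are descriptions. Python 3.11.15, pandas 2.3.3, numpy 2.4.6 and Biopython 1.88 were used, and the gene calls were tested on simulated peaks. The alternatives were stricter scores, other target regions and overlaps, assignment to the nearest TSS, peaks over Col-0 peaks left out, and each AIPP3-4Myc library left out.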

Additional observations from a re-analysis of the deposited data

How the results depend on the processing

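Of 48 alternative values, 39 stayed within 1.5 times the main count or within the spread between replicates. Several of the 39 could not have moved, so this number does not measure stability. Leaving out peaks over Col-0 peaks could not change the member counts. No Col-0 peak lay closer than 424 kb to a member's target region. With scores of at least 100, 8 members were bound in both AIPP3-4Myc libraries, 10 in replicate 1 and 11 in replicate 2, against 0.496% of protein-coding genes in both. The 7 members lost were ZAT10, PEN3, TCH3, SYP121, PUB22, NHL3 and TCH4. With scores of at least 75 the share of protein-coding genes was 0.823%, and TCH3 and SYP121 were lost. When each peak went to the nearest TSS alone, 9 members were bound in both and 13 in replicate 1, against 0.955% of protein-coding genes in both, and PUB23, TCH3, MPK4, NHL3, BCB and TCH4 were lost. Counting the gene body alone lost MPK4, and asking for the peak midpoint in the target region lost MPK4 and BCB. With 1 AIPP3-4Myc library left out, the share of protein-coding genes ranged from 2.28% to 5.11%, the members bound from 17 to 21, and their median midpoint from 872.5 to 953.5 bp. These midpoints are the medians of each replicate, from which that spread was taken, so they say nothing about stability. No member was bound in Col-0 under any of the alternatives run for that library. Apart from assignment to the nearest TSS, these alternatives could only remove calls and not add them, so this result was fixed in advance. No paired analysis was possible because there is 1 Col-0 library. Unknown depth limits every call of no peak.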
